A study of Homo sapiens with 9 samples.

Results

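The regions described here are the promoters of intergenic long noncoding RNA (lncRNA) genes in MDA-MB-231 cells, a triple-negative human breast cancer line. A gene was a member when GENCODE release 44 typed it as lncRNA on chromosomes 1 to 22, when the start of its canonical transcript (TSS) lay more than 5 kb from every protein-coding TSS, and when that start fell inside no protein-coding gene. This gave 9405 members among 37501 protein-coding and lncRNA genes. Of the others, 8985 were lncRNA genes closer to or within protein-coding genes and 19111 were protein-coding genes.

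The assay was ATAC-seq, in which the Tn5 transposase cuts accessible DNA, and each of the 9 libraries came with its own list of peaks on GRCh38. All libraries were made from MDA-MB-231 cells. Lentiviral short hairpin RNAs were delivered for 24 h and selected with 2 μg/ml puromycin for 72 h in cells given a control hairpin (shCtrl, 2 libraries), a hairpin against EZH2 (shEZH2, 2), against E2F1 (shE2F1, 2) or against SUZ12 (shSUZ12, 1). A further pair of libraries came from cells given GSK126, an inhibitor of EZH2, for 72 h (1) or its solvent DMSO (1). The DMSO library carries DMSO in its title and WT as its treatment entry, and the drug dose used for ATAC-seq was not in the labels. A library is a bulk sample of a cell line, so a smaller share of cells with an open site and a less open site in every cell cannot be told apart. Peak lists hold no RNA, so they give no check of the knockdowns and no measure of whether a promoter was transcribed.

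EZH2 is the catalytic subunit and SUZ12 a core subunit of polycomb repressive complex 2, which methylates lysine 27 of histone H3 and keeps its target promoters silent. E2F1 is a transcription factor that binds the promoters of cell cycle genes. Intergenic lncRNA genes have promoters of their own, often tissue-restricted, and include hosts of small nucleolar RNAs (snoRNAs) and microRNAs as well as genes formed by duplication of protein-coding genes.

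A promoter counted as open when a peak overlapped its TSS or the sequence within 1 kb of it. Column 7 of the lists, the fold enrichment of the peak summit over the local background, was turned into its percentile among all peaks of the same library, so that 100 is the strongest peak of a library and 0 the weakest. The lists held 58626 peaks (shEZH2 replicate 2) to 85812 peaks (shE2F1 replicate 2). The summits of the members' peaks held a median of 36 to 62 reads per library, recovered from the fold and p-value columns, and the weakest held 8 to 10.

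Most members had no peak: 7137 of 9405 (75.9%) were closed in all 9 libraries, 1023 had a peak in 1 to 8 libraries and 1245 (13.2%) had a peak in all 9. The 1245 promoters carried 1089 distinct summits, because 141 summits lay between 2 or more members whose starts were close together. A peak in all 9 libraries was present at 61.0% of protein-coding promoters and 33.6% of the other lncRNA promoters.

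Sequences at some of these summits are printed as examples, and the summits were not sorted into kinds. The members shown were chosen after their values were seen. A first set is printed because it holds some of the strongest members, and each window of 201 bases is centred on the summit and written 5′ to 3′ on the plus strand of GRCh38, with CpG dinucleotides in capitals.
FAM86EP, chr4:3955486-3955686, gene on the minus strand: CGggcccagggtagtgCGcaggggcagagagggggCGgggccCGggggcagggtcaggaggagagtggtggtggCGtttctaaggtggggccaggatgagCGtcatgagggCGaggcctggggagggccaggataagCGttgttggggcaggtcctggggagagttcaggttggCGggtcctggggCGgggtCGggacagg
SLC28A2-AS1, chr15:45279229-45279429, gene on the minus strand: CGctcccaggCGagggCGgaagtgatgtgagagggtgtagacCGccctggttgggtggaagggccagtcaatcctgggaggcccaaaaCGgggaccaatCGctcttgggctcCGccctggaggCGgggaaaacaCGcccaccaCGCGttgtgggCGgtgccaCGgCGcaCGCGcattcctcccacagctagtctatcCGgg
LINC00663, chr19:19776406-19776606, gene on the minus strand: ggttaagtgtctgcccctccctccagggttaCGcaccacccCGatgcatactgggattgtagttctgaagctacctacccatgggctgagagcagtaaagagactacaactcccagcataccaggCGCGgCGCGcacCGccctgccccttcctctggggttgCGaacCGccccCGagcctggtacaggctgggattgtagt
SNHG30, chr17:35567919-35568119, gene on the plus strand: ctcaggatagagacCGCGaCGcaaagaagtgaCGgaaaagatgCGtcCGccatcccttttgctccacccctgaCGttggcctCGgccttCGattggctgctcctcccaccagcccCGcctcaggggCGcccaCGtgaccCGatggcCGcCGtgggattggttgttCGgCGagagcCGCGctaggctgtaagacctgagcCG
NORAD, chr20:36050882-36051082, gene on the minus strand: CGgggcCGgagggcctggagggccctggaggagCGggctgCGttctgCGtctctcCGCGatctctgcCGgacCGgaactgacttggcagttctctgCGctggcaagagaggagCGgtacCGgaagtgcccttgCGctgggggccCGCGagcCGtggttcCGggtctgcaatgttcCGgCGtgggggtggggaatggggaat

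The windows of SLC28A2-AS1, SNHG30 and NORAD hold 17, 20 and 19 CpG dinucleotides, and their ratios of observed to expected CpG were 0.77, 0.96 and 0.84. FAM86EP, with 11 CpG dinucleotides, and LINC00663, with 10, had ratios of 0.59 and 0.55.

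Another set was also strong but poor in CpG. It is printed because it carries the AP-1 motif, TGACTCA or TGAGTCA on either strand, shown in capitals.
LINC01655, chr1:221839963-221840163, gene on the minus strand: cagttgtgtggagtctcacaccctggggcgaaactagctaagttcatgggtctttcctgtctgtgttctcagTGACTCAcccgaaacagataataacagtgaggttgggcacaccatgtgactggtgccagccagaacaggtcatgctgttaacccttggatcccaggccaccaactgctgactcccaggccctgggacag
ALKBH3-AS1, chr11:43920792-43920992, gene on the minus strand: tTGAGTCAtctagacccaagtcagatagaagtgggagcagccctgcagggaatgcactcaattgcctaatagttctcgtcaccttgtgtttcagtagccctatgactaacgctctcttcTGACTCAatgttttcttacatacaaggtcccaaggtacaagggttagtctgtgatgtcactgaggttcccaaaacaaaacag
LINC02725, chr11:128095569-128095769, gene on the plus strand: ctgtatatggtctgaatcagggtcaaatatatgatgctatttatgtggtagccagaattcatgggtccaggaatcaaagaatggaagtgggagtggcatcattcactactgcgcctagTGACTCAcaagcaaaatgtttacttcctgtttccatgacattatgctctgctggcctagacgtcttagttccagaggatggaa
LINC01271, chr20:50321380-50321580, gene on the minus strand: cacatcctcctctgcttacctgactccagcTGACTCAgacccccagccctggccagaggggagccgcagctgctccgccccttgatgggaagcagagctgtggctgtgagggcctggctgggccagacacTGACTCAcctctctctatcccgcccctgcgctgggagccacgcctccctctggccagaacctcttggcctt

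These 4 windows had CpG ratios of 0.14 to 0.24, and their percentiles ran from 98.3 to 99.9 (LINC01655), 91.8 to 99.6 (ALKBH3-AS1), 95.9 to 99.4 (LINC02725) and 89.5 to 98.8 (LINC01271). ALKBH3-AS1 and LINC01271 each held 2 copies of the motif and the other two 1 copy.

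A further set carries the E2F motif, searched as TTTCCCGC, TTTCGCGC, TTTGCCGC and TTTGGCGC on both strands and shown in capitals. SNHG1 and SNHG17 were open in every library, and LINC02406 had no peak in the shE2F1 libraries. The motif was at 2 of the 60 members that lost their peak with shE2F1 (3.33%), beside 2.73% of all promoters with a peak.
SNHG1, chr11:62855911-62856111, gene on the minus strand: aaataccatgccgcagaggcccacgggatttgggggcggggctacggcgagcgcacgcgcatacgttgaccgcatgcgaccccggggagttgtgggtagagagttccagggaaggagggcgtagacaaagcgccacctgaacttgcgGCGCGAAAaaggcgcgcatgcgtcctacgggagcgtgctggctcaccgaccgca
SNHG17, chr20:38435276-38435476, gene on the minus strand: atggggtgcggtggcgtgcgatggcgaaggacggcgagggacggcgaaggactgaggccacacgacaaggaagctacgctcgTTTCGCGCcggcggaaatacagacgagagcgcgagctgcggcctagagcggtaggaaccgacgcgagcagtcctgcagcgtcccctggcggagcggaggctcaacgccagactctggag
LINC02406, chr12:39145481-39145681, gene on the minus strand: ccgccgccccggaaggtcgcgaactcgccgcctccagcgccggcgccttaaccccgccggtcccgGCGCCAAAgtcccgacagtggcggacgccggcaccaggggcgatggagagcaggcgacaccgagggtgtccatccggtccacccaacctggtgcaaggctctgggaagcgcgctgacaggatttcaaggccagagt

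The last set shows a promoter called as gaining a peak, TRPC2, with its summit 1005 bp from the TSS, and one called as losing it, LINC02093. CpG dinucleotides are in capitals. The TRPC2 window holds none and the LINC02093 window 5.
TRPC2, chr11:3627344-3627544, gene on the plus strand: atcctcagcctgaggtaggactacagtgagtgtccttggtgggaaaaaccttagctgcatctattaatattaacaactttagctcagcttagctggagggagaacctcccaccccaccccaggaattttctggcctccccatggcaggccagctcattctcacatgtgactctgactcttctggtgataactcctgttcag
LINC02093, chr17:13306676-13306876, gene on the minus strand: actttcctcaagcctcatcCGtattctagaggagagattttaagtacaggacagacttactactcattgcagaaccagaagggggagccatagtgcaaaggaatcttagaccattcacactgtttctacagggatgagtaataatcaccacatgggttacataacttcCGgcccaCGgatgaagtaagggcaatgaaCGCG

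Over all members open in 9 libraries, 251 of 1245 (20.2%, 95% Wilson interval 18.0 to 22.5%) had an AP-1 motif within 100 bp of the summit, against 3.99% (3.65 to 4.36%) of the protein-coding promoters open in 9 libraries. Among all 20017 promoters with a peak the share was 7.48%. A CTCF motif lay at 4.66% of the members' summits and 0.747% of the protein-coding ones, with 1.39% over all promoters with a peak. The E2F motif lay at 2.65% of the members' summits, 3.31% of the protein-coding ones and 2.73% of all. These intervals cover counting error only, a motif is a match of letters and no test of binding was made. Members that share a summit share its window, and the 1245 members carry 1089 distinct summits. The intervals count such windows more than once and are therefore too narrow.

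AP-1 motifs were about as frequent at strong and at weak members. Their share was 21.2% among 264 open members with a mean percentile of 50 or less and 18.8% among 207 members above 90. Among protein-coding promoters the same shares were 7.66% and 1.98%. The CTCF motif was at none of the 207 strongest members and at 5.3% of the 264 weakest.

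Open members were richer in CpG than closed ones. The 1001 bp around the TSS had a median GC content of 55.2% and a CpG ratio of 0.509 in members open in 9 libraries, 49.2% and 0.266 in members open in some, and 44.2% and 0.227 in members open in none. Protein-coding promoters open in 9 libraries had medians of 63.9% and 0.79. Of the 330 members with a CpG ratio above 0.8, 55.5% (50.1 to 60.7%) were open in all 9 libraries, against 83.9% (82.9 to 84.7%) of the 6541 protein-coding promoters in that range. At ratios of 0.2 or less the shares were 5.59% of 3542 members and 6.12% of 2042 protein-coding promoters, and their intervals overlapped.

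The open share was lower far from protein-coding genes. It was 20.6% (17.3 to 24.4%) of the 509 members 5 to 10 kb from the nearest protein-coding TSS, 24.4% (21.7 to 27.3%) of the 898 members at 10 to 20 kb, 13.8% of the 1748 at 50 to 100 kb and 2.6% (1.8 to 3.73%) of the 1077 beyond 500 kb. The open ones had median percentiles of 63.9, 69.8, 74.0 and 69.1 in the same ranges.

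**Figure D1:**
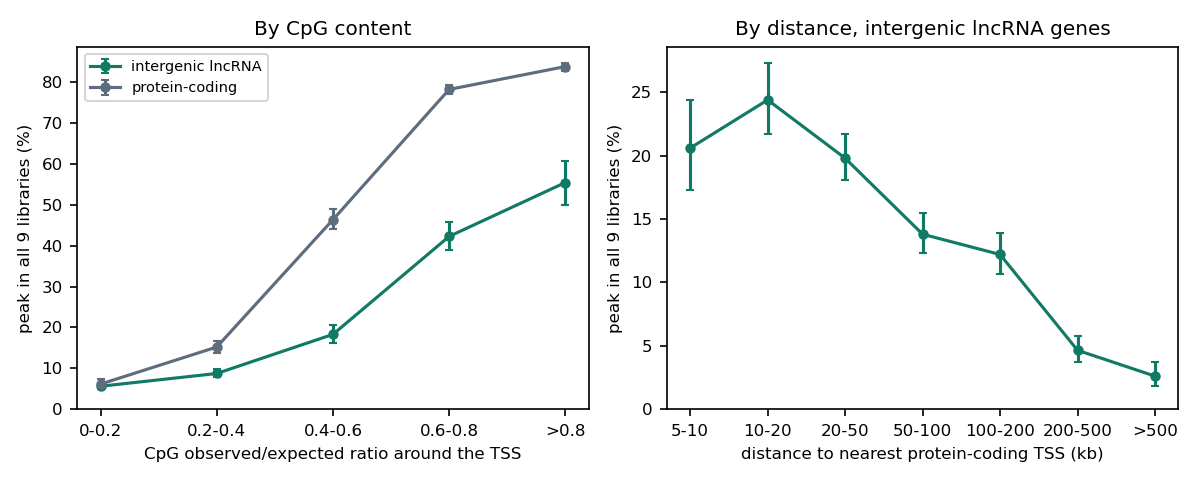
Percent of promoters with a peak in all 9 libraries, by the observed to expected CpG ratio in the 1001 bp around the TSS (left, intergenic lncRNA and protein-coding genes) and by distance in kb to the nearest protein-coding TSS (right, intergenic lncRNA genes); points are shares and bars 95% Wilson intervals. The lncRNA points rise from 5.59% to 55.5% with CpG and fall to 2.6% beyond 500 kb.

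The kind of gene name went with the share too. Of 79 members named as hosts of small RNAs 46.8% were open in all 9 libraries, of 180 with a pseudogene-style symbol 31.7%, of 204 antisense genes 28.4%, of 2042 with a LINC number 13.5% and of 6554 known only by an Ensembl identifier 11.3%. The summit lay upstream of the canonical transcript in 63.3% of the open members, in its first exon in 18.5% and in an intron in 16.1%. The median distance from summit to TSS was 177 bp, against 97 bp in protein-coding genes.

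The first comparison asked how often intergenic lncRNA promoters were open beside protein-coding ones in the same libraries. The share of members with a peak ran from 15.2% (14.5 to 15.9%) in shEZH2 replicate 2 to 19.4% (18.6 to 20.2%) in shE2F1 replicate 2. The protein-coding share ran from 62.9% in shEZH2 replicate 2 to 67.7% in shCtrl replicate 2. The difference was −48.55 ± 0.57 percentage points (SD, n = 9 libraries), negative in 9 of 9, with p = 0.0039 in a two-sided exact sign-flip permutation test, the smallest that 9 libraries allow. Every library scored the same promoters in the same cell line, so the sign was nearly bound to repeat. The p therefore adds little to the difference itself.

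The members' peaks were also weaker. Over promoters with a peak in the given library, the median percentile of members ran from 61.5 to 64.8 and that of protein-coding promoters from 71.9 to 79.1. The difference was −11.47 ± 1.65 percentile points (SD, n = 9 libraries), again negative in 9 of 9 with p = 0.0039 in the same exact test, with the same limit. Among promoters open in all 9 libraries the medians were closer, at 74.0 for members and 77.2 for protein-coding promoters in shCtrl replicate 1. In shSUZ12, where they lay furthest apart, they were 74.5 and 82.0. The local background under the peaks of promoters open in 9 libraries differed as well, with library medians of 4.2 to 7.68 expected reads for members and 5.3 to 9.86 for protein-coding promoters.

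**Figure D2:**
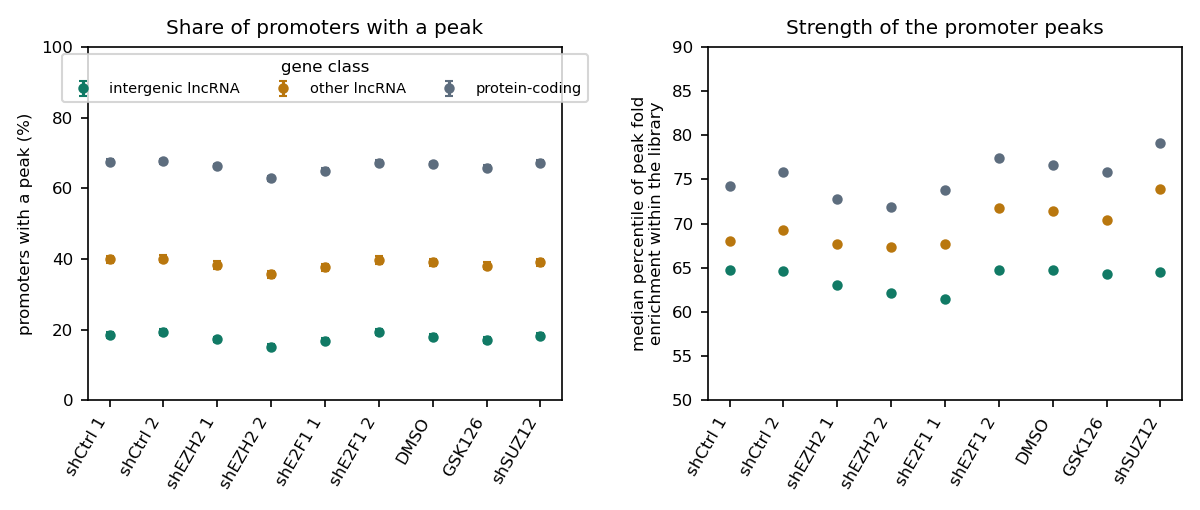
Percent of promoters with a peak (left, points with 95% Wilson intervals) and median percentile of the peaks' fold enrichment (right) in each of the 9 libraries, for intergenic lncRNA, other lncRNA and protein-coding genes. The intergenic lncRNA points are the lowest in every library, at 15.2 to 19.4% and 61.5 to 64.8.

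The strongest members were named by their mean percentile over the 9 libraries, among those with an assigned symbol; members known only by an Ensembl identifier were among the strongest as well. The list was led by relatives of protein-coding genes. FAM86EP, a copy of the FAM86 lysine methyltransferase gene on chromosome 4 (peak chr4:3955375-3956000, upstream of the gene), ran from percentile 99.9 to 100, with folds of 18.83 to 24.78 and 60 to 165 reads at the summit. FAM86C2P (chr11:67805043-67806078) ran from 99.5 to 100 and FAM86DP (chr3:75435109-75435748) from 98.6 to 99.9. MRPL45P2, a copy of a mitochondrial ribosomal protein gene (chr17:47492112-47493074), ran from 98.6 to 99.9. Thus 4 of the 10 strongest were copies of a protein-coding gene, and each lay upstream of its transcript.

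Near-identical sequence limits what can be said of some of them, because reads were placed with up to 4 alignments each. The 201 bp at the FAM86C2P summit has 1 other copy of at least 95% identity on chromosomes 1 to 22, X and Y and 6 of at least 90%, MRPL45P2 has 1 at either level and FAM86DP 2 at 90%. FAM86EP has none at either level. Over the members open in 9 libraries 112 (9.0%, 7.53 to 10.7%) had another copy of at least 95% identity, against 1.18% (1.0 to 1.4%) of protein-coding promoters, and peaks at those members may hold reads of another locus.

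Of the other strong members, SLC28A2-AS1 (chr15:45279030-45279548, 27.0 kb from SLC28A2) ran from 99.6 to 99.9 and LINC00663 (chr19:19776034-19777120, 43.3 kb from ZNF14) from 99.3 to 99.9. LINC02695 (chr11:86193433-86193861) ran from 98.2 to 99.8. Its nearest protein-coding TSS, 51.3 kb away, is that of EED, a further core subunit of polycomb repressive complex 2. LINC01655 (chr1:221839795-221840787, in an intron) ran from 98.3 to 99.9. PRNCR1, at the 8q24 cancer risk region, ran from 96.8 to 100, and SNHG30 (chr17:35567573-35568790) from 96.9 to 99.9. All 10 stayed above percentile 96 in every library and none had an adjusted p under 0.05 in the fits below. For comparison, the range over 9 libraries of an open member's percentile had a median of 26.8 points.

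Host genes of snoRNAs, whose introns carry the guide RNAs of ribosome modification, were open as a group. Of the 20 members on this list, which also takes in DANCR, 17 (85%) had a peak in all 9 libraries, 1 in 8 and 2 (SNHG14 and SNHG27) in none, and the median of the mean percentiles was 80.1. SNHG30, DANCR and SNHG8 were the strongest. DANCR ran from 93.3 to 99.1 and SNHG8 from 88.5 to 96.7. SNHG1 ran from 74.6 to 96.9 and SNHG12 from 65.6 to 87.5. SNHG21 (83.4 to 95.2), SNHG25 (67.4 to 91.6), SNHG15 (63.3 to 92.8) and SNHG17 (76.1 to 85.9) lay in the same upper range. SNHG5 (70.1 to 92.0), SNHG29 (66.9 to 87.3), SNHG16 (69.3 to 86.2), SNHG6 (57.8 to 88.2) and SNHG11 (61.0 to 82.5) came next, and every one of these hosts overlapped its neighbours in that order. SNHG7 ran from 23.8 to 53.6, SNHG32 from 20.0 to 55.3 and SNHG26 from 10.3 to 50, so the lowest of these hosts did not overlap the highest. SNHG20 had a peak in 8 libraries, at percentiles of 14.9 to 44.3, and none in shEZH2 replicate 2.

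Host genes of microRNAs were open less uniformly. Of 61 members, counted with DLEU2, 22 (36.1%) had a peak in all 9 libraries, 9 in some and 30 in none, with a median of 59.7. MIR4458HG was the strongest, at 95.7 to 99.4, and shares its summit with the divergent LINC02226 and with ENSG00000249159. MIRLET7A1HG, host of let-7 microRNAs, ran from 80.5 to 92.3 and MIR9-1HG from 79.7 to 92.7. MIR17HG, host of the oncogenic miR-17 cluster, ran from 39.5 to 80.3, with both extremes in the shE2F1 libraries. DLEU2, host of miR-15a and miR-16-1, ran from 59.9 to 86.1 and MIR210HG, host of the hypoxia-induced miR-210, from 31.3 to 64.3. MIR200CHG, host of miR-200c, a guardian of the epithelial state, ran from 20.9 to 39.4 and MIR193BHG from 38.5 to 63.4. These hosts thus spread over most of the scale while each kept a peak in every library. MIR34AHG, host of the p53-induced miR-34a, ran from 1.8 to 23.9. MIR3142HG, MIR365BHG, MIR646HG, MIR130AHG, MIR181A1HG, MIRLET7IHG, MIR924HG, MIR194-2HG, MIR29B2CHG, MIR1915HG, MIR4300HG, MIR5689HG and MIRLET7BHG were also open in every library, between 10.2 (MIRLET7BHG) and 90.1 (MIR3142HG). MIR2052HG and MIR3681HG had a peak in 8 libraries, MIR3663HG in 4, MIR219A2HG in 3, MIR1-1HG in 2 and MIR3945HG, MIR202HG and MIR23AHG in 1. No peak was listed at MIR31HG, MIR100HG, MIR155HG, MIR205HG, MIR137HG, MIR99AHG, MIR4435-2HG or the hosts MIR124-1HG and MIR124-2HG.

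**Figure D3:**
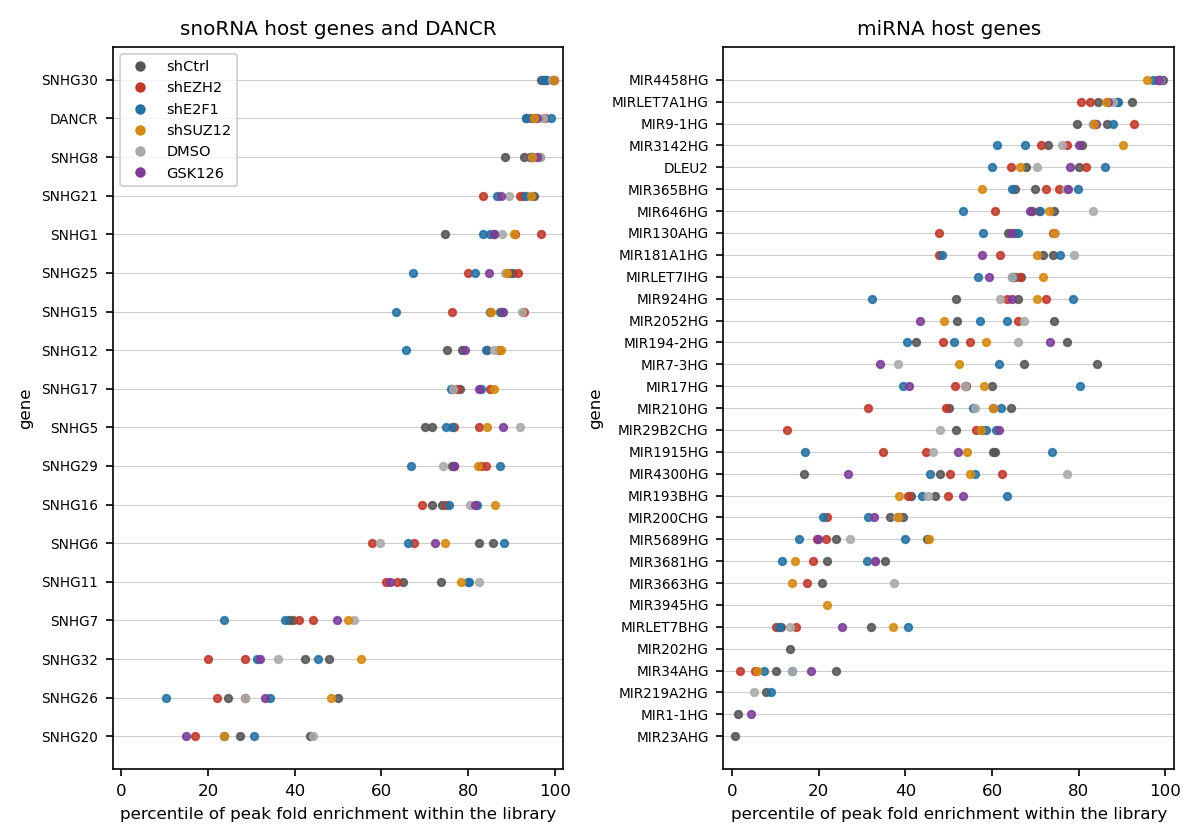
Percentile of the promoter peak's fold enrichment within its library (x axis) for host genes of snoRNAs (left) and microRNAs (right) with a peak in at least 1 library; each point is 1 library, coloured by group, and a missing point is a library with no peak. SNHG30, DANCR and SNHG8 lie above 88 in every library, and MIR34AHG lies between 1.8 and 23.9.

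Of 8 lncRNAs listed as abundant and nuclear or structural, 5 were members, and all 5 were open in every library. NORAD, which binds Pumilio proteins and guards genome stability, ran from 94.1 to 99.5, MIAT from 73.9 to 92.9 and CHASERR, a regulator of CHD2, from 47.7 to 87.2. MALAT1, a nuclear speckle RNA, ran from 24.7 to 55.8. NEAT1, the scaffold of paraspeckles, ran from 0.0 to 5.3 and so sat near the bottom of every list.

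NEAT1 and MALAT1 were low in fold and not in reads. The NEAT1 summit held 106 to 372 reads over a local background of 44.5 to 133 reads, which gave folds of 2.09 to 3.52. By the percentile of −log10 p the same peak ran from 36.4 to 88.8. MALAT1 held 140 to 360 reads over 22.5 to 61.0, and by −log10 p it ran from 94.2 to 98.5. NORAD held fewer reads, 72 to 184, over a background of 4.76 to 10.1. Of the 1245 open members 20 (1.61%) had a mean fold percentile under 25 with a mean −log10 p percentile above 50, and of the open protein-coding promoters 2.06%.

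On the other lists, which were drawn from the literature, open and closed members stood side by side. Of 7 lncRNAs linked to polycomb, 4 (LINC-PINT, PVT1, NEAT1 and MALAT1) were open in every library and H19, MEG3 and MIR31HG had no peak in any. LINC-PINT ran from 0.4 to 11.9 and PVT1, the neighbour of MYC, from 32.8 to 70.9. Of 4 p53-linked members 3 were open, with PURPL closed. Of 18 lncRNAs studied in breast cancer 8 were open in every library, 1 in some and 9 in none. LINC00472, described as a tumour suppressor, ran from 88 to 90, the narrowest of these. UCA1 ran from 17.5 to 47.3 and LINC00511 from 17.8 to 62.0, and both had their lowest value in shEZH2 replicate 2. LUCAT1 ran from 33.4 to 73.1 and LINC00973 from 6.2 to 30.1. LINC01133 had a peak in 7 libraries, and CYTOR, BCAR4, LINC-ROR, LINC01614 and LINC01139 had none.

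The next comparisons asked which intergenic lncRNA promoters opened or closed when EZH2 or E2F1 was depleted. The number of members with a peak was 1737 and 1819 in shCtrl, 1621 and 1429 in shEZH2, and 1588 and 1828 in shE2F1. Both shEZH2 libraries lay below both shCtrl libraries, with p = 0.333 in a two-sided exact permutation test, the smallest p that 2 against 2 allows. The shE2F1 libraries lay on either side, with p = 1.0 in the same exact test. The shEZH2 replicate 2 list was also the shortest of all, and counts from lists of equal length are given with the next result. The labels do not say whether replicates came from separate cultures, so p-values measure the spread between these libraries.

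A member was called gained when it had a peak in every library of the treatment and in none of its control, and lost in the reverse case. With shEZH2, 7 of 7478 members without a shCtrl peak were gained (0.0936%, 0.0454 to 0.193%), against 0.129% of all promoters. In the other direction 112 of 1629 members with a peak in both shCtrl libraries were lost (6.88%, 5.75 to 8.21%), against 2.34% of all promoters. The share was 3.11% (2.58 to 3.74%) of the other lncRNA promoters and 1.55% (1.35 to 1.78%) of protein-coding ones. When every list was cut to the same number of peaks of smallest p, 18 members were gained (0.231%, all promoters 0.489%) and 43 were lost (3.11%, all promoters 1.27%). Either shEZH2 library alone gave higher counts, with 25 gained (all promoters 0.43%) and 261 lost (7.08%) without replicate 1 and 67 gained (1.34%) and 141 lost (3.04%) without replicate 2.

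With shE2F1, 36 of 7478 members were gained (0.481%, 0.348 to 0.666%), against 0.527% of all promoters. Another 60 of 1629 were lost (3.68%, 2.87 to 4.71%), against 1.37% of all promoters. The share lost was 1.98% (1.56 to 2.5%) of the other lncRNA promoters and 0.912% (0.76 to 1.09%) of protein-coding ones. With lists of the same length the counts were 33 gained (0.424%, all promoters 0.524%) and 44 lost (3.19%, all promoters 1.38%). The balance of gain and loss differed between the shE2F1 libraries: 158 members were gained (all promoters 2.33%) and 88 lost (1.99%) without replicate 1, and 78 gained (1.24%) and 193 lost (4.6%) without replicate 2. The shEZH2 and shE2F1 counts use the same shCtrl libraries, as do those of shSUZ12.

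The share lost was higher among members than among protein-coding promoters in each range of starting fold percentile. These ranges were not matched for reads at the summit, on which the listing of a peak also depends. In shCtrl replicate 1 the median was 54 reads for members with a peak and 91 for protein-coding promoters. Whether reads account for the difference was not tested. Among promoters with a mean shCtrl percentile of 25 or less, 52 of 158 members (32.9%) and 125 of 1035 protein-coding promoters (12.1%) were lost with shEZH2. Between 50 and 75 the shares were 3.43% and 0.49%, and above 75 they were 0.787% (5 of 635) and 0.031% (2 of 6460). With shE2F1 the shares were 19% and 7.44% in the lowest range and 1.82% and 0.245% between 50 and 75. Above 75 they were 0.157% (1 of 635) and 0.0464% (3 of 6460). The peaks that came and went were weak. The members lost with shEZH2 had a median shCtrl percentile of 26.3 and 19 reads at the summit, and those gained with shE2F1 a median of 28.9 and 17 reads. A member counted as without a peak when no listed peak overlapped its window of 1 kb on each side of the TSS. Its peak may have been below that library's calling limit or listed just outside the window. Such a promoter is not shown to be closed.

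Of the 7 members gained with shEZH2, 4 have symbols. TRPC2, a pseudogene in humans of the pheromone-sensing channel of other mammals (chr11:3627384-3627664, intron), had no peak in shCtrl replicates 1 and 2, DMSO or GSK126. Its percentiles were 53.4 and 54.2 in shEZH2, 31.5 and 42.7 in shE2F1 and 45.6 in shSUZ12. A peak thus overlapped the promoter window in all 5 libraries of these hairpins and in none of the 4 others. The summit held 15 to 25 reads and lay 1005 bp from the TSS, so that only the edge of the peak reached the promoter window. Whether the 4 others listed a narrower peak outside the window was not checked. LINC00184 was at 44.8 and 12.7 in shEZH2 and at 11.9 and 15.8 in shE2F1, and also had a peak in DMSO (18.5) and GSK126 (16.2). LINC02965 was at 68.2 and 11.9, and LINC02308 at 16.9 and 8.3 in the shEZH2 libraries. The shEZH2 replicates of LINC02965 were thus further apart than most open members were over all 9 libraries.

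Of the 112 members lost with shEZH2, 40 have symbols. MIR7-3HG, host of miR-7-3 (chr19:4769508-4769841, exon 3 of 5), was at 84.3 and 67.4 in shCtrl, absent from both shEZH2 libraries and from shE2F1 replicate 1, and at 61.7 in shE2F1 replicate 2, 38.4 in DMSO, 34.1 in GSK126 and 52.4 in shSUZ12. LINC02093 (chr17:13306672-13306966) was at 55.9 and 60.8 in shCtrl and absent from shEZH2, DMSO, GSK126 and shE2F1 replicate 1. LINC00595 was at 55.2 and 61.9 in shCtrl and had no peak in shEZH2, shSUZ12 or GSK126. It was still listed in both shE2F1 libraries, at 22.7 and 61.2. LINC01932, FLJ40194, OR2W5P, LINC00355 and LINC00970 followed, with shCtrl percentiles of 35.1 to 67.9.

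With shE2F1 10 of the 36 gained and 18 of the 60 lost members have symbols. FAM245A was at 37.9 and 55.2, LINC01508 at 54.1 and 37.5 and LINC01366 at 32.0 and 47.2 in shE2F1, each with no peak in shCtrl or shEZH2. The FAM245A window has 2 other copies of at least 95% identity. SLC1A3-AS1, at 32.7 and 30.9, also had a peak in shEZH2 replicate 1 (12.7), GSK126 (20.9) and shSUZ12 (16.3). LINC02552 and LINC00974 followed at 11.8 to 41.4.

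LINC02346 (chr15:25903023-25903602, intron) was the strongest member lost with shE2F1. It was at 85.3 and 89.2 in shCtrl, 81.6 in shEZH2 replicate 1, 72.7 in DMSO and 92.0 in GSK126, with 34 to 55 reads. No peak overlapped the promoter window in either shE2F1 library, in shSUZ12 or in shEZH2 replicate 2. Its summit lay 1315 bp from the TSS, so that only the edge of the peak reached the promoter window. A narrower peak at the same site would have missed the window, and whether one was listed was not checked. LINC02617 was at 73.5 and 72.6 in shCtrl, 86.6 in shEZH2 replicate 1 and 73.3 in shSUZ12. No peak overlapped its window elsewhere, and its summit lay 1360 bp from the TSS, with the same limit. CCDC54-AS1 was at 39.9 and 63.3 in shCtrl, 46.2 in shEZH2 replicate 1 and 47.2 in shSUZ12. LINC02406, whose window holds the E2F motif shown above, was at 39.9 and 25.9 in shCtrl and 58.3 in shEZH2 replicate 1, with 12 to 21 reads. The E2F motif was at the summit of 2 of the 60 lost members (3.33%) and 0 of the 36 gained, beside 2.73% of all promoters with a peak, and the AP-1 motif at 10 (16.7%) and 9 (25%), beside 20.2% of the members open in 9 libraries.

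**Figure D4:**
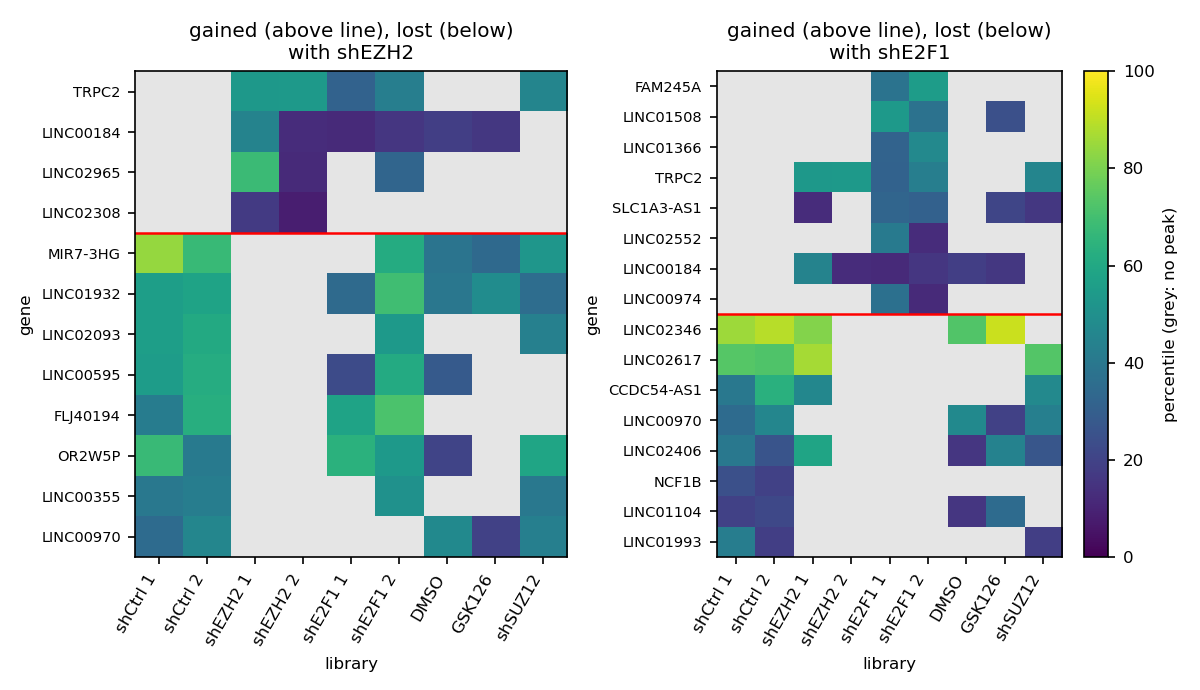
Percentile of the promoter peak (colour, grey where no peak overlapped the promoter window) in the 9 libraries for the named members gained (above the red line) or lost (below it) with shEZH2 (left) and shE2F1 (right). TRPC2 has a peak overlapping its window in the 5 shEZH2, shE2F1 and shSUZ12 libraries and in no shCtrl, DMSO or GSK126 library. LINC02346 has none overlapping its window in either shE2F1 library, shSUZ12 or shEZH2 replicate 2. The summits of these peaks lie outside the window.

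Some members met the definition in several comparisons, which is described side by side because the hairpin comparisons share both shCtrl libraries. LINC01768, LINC01104, LINC01511, NCF1B, DPY19L2P4 and LINC03008 had no peak in any shEZH2, shE2F1 or shSUZ12 library. Their shCtrl percentiles ran from 4.0 (LINC01768) to 52.3 (DPY19L2P4). NCF1B, a copy of the NADPH oxidase gene NCF1, has 2 other copies of at least 95% identity.  GSK126 and DMSO form a separate pair, and 25 members were lost both with shEZH2 and with GSK126, which is 22.3% of the former and 15.0% of the latter. LINC00595, LINC01252, LINC02372, LINC03082, LINC02784, LINC01816, LINC02522, OR2W5P, URAHP and LINC02978 were among them. Of all members with a DMSO peak, 9.91% were lost with GSK126. That share is no baseline for the 22.3%, which is over members lost with shEZH2 whether or not they had a DMSO peak. The strength of the peaks was not matched either. The same overlap over all promoters was not counted, so it is not read as agreement between EZH2 depletion and inhibition.

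The remaining members called in more than 1 comparison are named with their shCtrl percentiles. Lost with shEZH2 and shE2F1 were LINC01342 (11.3 and 11.4), LINC00970 (35.1 and 45.8), LINC01993 (42.2 and 18.7) and LINC02910 (13.2 and 8.4). Lost with shEZH2 and shSUZ12 were FLJ40194 (41.9 and 62.8), LINC02138 (37.5 and 24.7), CISTR (27.6 and 20.0), LINC02290 (29.8 and 17.2), LINC03024 (26.5 and 20.8) and TRBV11-2 (3.4 and 23). Lost with shE2F1 and shSUZ12 were LINC01931 (25.4 and 9.6), LINC02416 (14.3 and 21.5) and LINC03010 (12.1 and 1.6), the last of which was lost with GSK126 too. SPTBN1-AS2 (44.2 and 34.6), LINC01558 (37.4 and 31.3) and LINC02176 (46.6 and 33.7) were lost with shSUZ12 and GSK126. Gained in 2 comparisons were SIGLEC17P, LINC02884 and LINC01795, at percentiles of 7.1 to 22.3.

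The single libraries of shSUZ12 and GSK126 have no replicate, so their counts describe these libraries and carry no test. With shSUZ12, 93 members were gained (1.24%, 1.02 to 1.52%), against 1.79% of all promoters. Another 116 were lost (7.12%, 5.97 to 8.47%), against 2.13% of all promoters and 3.28% of the other lncRNA promoters. With lists of the same length 78 were gained (1.0%, all promoters 1.82%) and 61 lost (4.42%, all promoters 1.39%), so that the order of the counts turned. SKOR1-AS1 was lost from shCtrl percentiles of 80.7 and 73.5, LINC02895 from 75.9 and 89.8, LINC02889 from 74.4 and 61.3 and LINC02380 from 56.7 and 58.1. LINC02346, described above, was the strongest. DISC1FP1 was gained at 47.2, LINC01179 at 35.8, LINC02890 at 28.7 and FAM238A at 26.7.

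With GSK126, 83 members were gained (1.08%, 0.868 to 1.33%), against 1.7% of all promoters. Another 167 were lost (9.91%, 8.57 to 11.4%), against 3.88% of all promoters and 4.84% of the other lncRNA promoters. With lists of the same length 97 were gained (1.23%, all promoters 2.07%) and 100 lost (6.72%, all promoters 3.03%), so that the counts were nearly equal. TNFRSF10A-DT, which starts 5.81 kb from the TRAIL receptor gene TNFRSF10A, was lost from 86.2 in DMSO and was at 39.9 to 80.3 in the hairpin libraries that had it. LINC02688 was lost from 73.3, LGALS17A from 72.7, LINC01794 from 71.0 and HRAT17 from 59.9. The members gained most strongly were LINC00210 (65.8), LINC02651 (35.0), LINC01563 (35.0), LINC02942 (32.2) and DPY19L2P4 (29.8). LINC00210 had a peak in 8 of 9 libraries and was missing only from DMSO, and all 5 had a peak in at least 1 shCtrl library. With the shCtrl libraries as control in place of DMSO, 36 members were gained (0.481%, all promoters 0.683%) and 135 lost (8.29%, all promoters 2.84%).

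Of the 81 small RNA hosts, the 39 open in every library could not be called. Among the others 1 was lost with shEZH2, 1 gained with shSUZ12, and 1 gained and 2 lost with GSK126, counts too small to set against the shares over all promoters.

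Changes in the strength of peaks that stayed open were tested with limma on the quantile-normalized log2 fold enrichment of 16010 promoters that were open in each of the 6 shCtrl, shEZH2 and shE2F1 libraries, of which 1270 were members. No member passed an adjusted p (Benjamini-Hochberg over all promoters) of 0.05 in either comparison or direction. Over all promoters 0.0% passed as higher and 0.00625% (1 promoter) as lower in each comparison. At an unadjusted p under 0.05, 54 members were higher (4.25%, all promoters 2.69%) and 78 lower (6.14%, all promoters 4.0%) with shEZH2, and 42 were higher (3.31%, all promoters 2.49%) and 82 lower (6.46%, all promoters 3.33%) with shE2F1. The median log2 difference of the members was −0.01 with shEZH2 and −0.02 with shE2F1, against 0.01 and 0.0 over all promoters tested. The median standard error was 0.16 in both.

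The members with a symbol and the smallest p, chosen after their values were seen, show the size of what could not be called. LINC02525 (chr6:3195981-3196395) had folds of 5.96 and 7.62 in shCtrl, 6.06 and 5.56 in shEZH2 and 11.22 and 16.37 in shE2F1, so both shE2F1 libraries lay above all others. Its log2 difference with shE2F1 was 1.19 ± 0.17 (SE, n = 2 against 2) with an adjusted p of 0.103 in limma. On log2 of −log10 p in place of the fold, it was the 1 member called, at 2.17 ± 0.36 with an adjusted p of 0.0193 in limma. THBS2-AS1 (chr6:169212977-169213286), 40.6 kb from the thrombospondin gene THBS2, had folds of 11.43 and 13.95 in shCtrl and 6.11 and 6.65 in shEZH2, with no overlap. Its log2 difference with shEZH2 was −0.79 ± 0.16 (SE, n = 2 against 2) with an adjusted p of 0.34 in limma.

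LINC02156 (−0.75), LINC00313 (−0.76) and SCAT1 (−0.60) had the next smallest p with shEZH2 among members with a symbol, at adjusted p of 0.34 to 0.345 in limma. With shE2F1, the next members with a symbol were GUSBP2 and LINC00240, which share 1 summit, at a log2 difference of −0.81 and an adjusted p of 0.627. Between them and LINC02525 stood members known only by an Ensembl identifier, among them ENSG00000225563, at a log2 difference of 1.01 with an adjusted p of 0.302 in limma, and ENSG00000289099, at −0.85 with 0.321. The GUSBP2 and LINC00240 percentiles were 92.6 and 91.6 in shCtrl but 27.2 and 78.8 in shE2F1, so that 1 replicate gave most of the difference. Without shE2F1 replicate 2 they were called at −1.2, with an adjusted p of 0.027 in limma. The median log2 difference of the 17 snoRNA hosts in the fit was 0.07 with shEZH2 and −0.02 with shE2F1, and that of the 22 microRNA hosts 0.03 and −0.02. SNHG1, with the E2F motif, differed by 0.08 ± 0.14 with shE2F1 (SE, n = 2 against 2; adjusted p = 0.964 in limma).

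**Figure D5:**
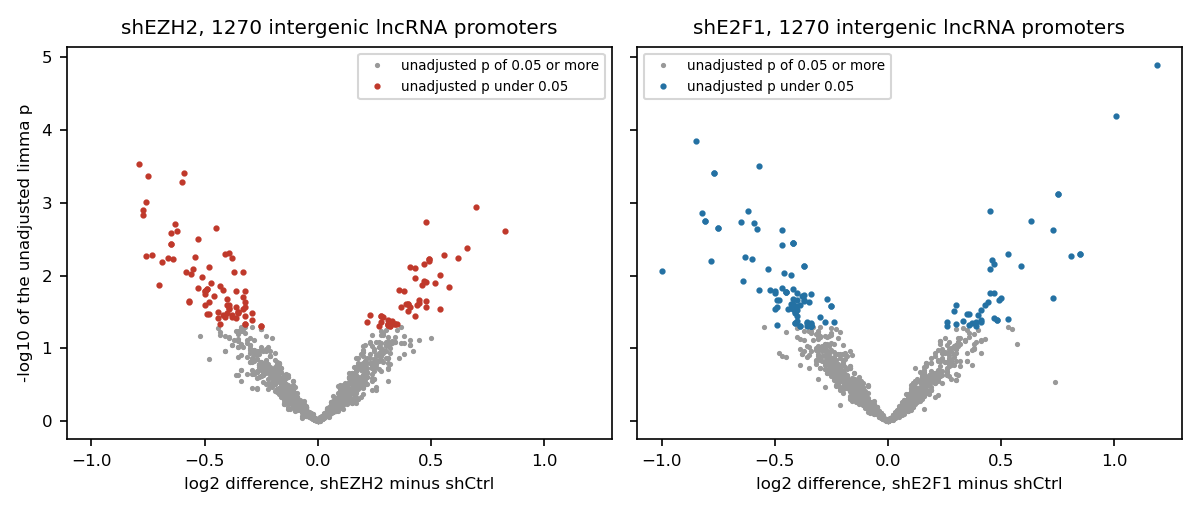
The 1270 intergenic lncRNA promoters with a peak in all 6 hairpin libraries of shCtrl, shEZH2 and shE2F1, by log2 difference from shCtrl (x axis) and −log10 of the unadjusted limma p (y axis), for shEZH2 (left) and shE2F1 (right); coloured points have an unadjusted p under 0.05. No point passed an adjusted p of 0.05, and the farthest point to the right is LINC02525 at 1.19 with shE2F1.

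The median percentile of the 1245 members open in all libraries was 74.0 and 75 in shCtrl, 71.7 and 67.1 in shEZH2 and 69.9 and 76.1 in shE2F1. It was 74.5 in DMSO, 72.3 in GSK126 and 74.5 in shSUZ12. The shEZH2 values lay below the shCtrl values and the shE2F1 values on both sides of them. The protein-coding promoters open in all libraries had 77.2 and 79.1 in shCtrl and 75.7 and 73.3 in shEZH2, the same order. The shEZH2 and shCtrl medians were no longer apart in that way when every list had the same number of peaks, at means of 67.6 in shCtrl and 69.1 in shEZH2.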

How the data were processed

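ATAC-seq was done on MDA-MB-231 cells in 6 groups: shCtrl, shEZH2 and shE2F1 with 2 libraries each and shSUZ12, DMSO and GSK126 with 1 each. The authors aligned reads to GRCh38 with Bowtie2 (end to end, -k 4) and shifted Tn5 cut sites by 4 bp on the plus and 5 bp on the minus strand. The peak caller and its version are not given in the sources used here, and peaks were listed per library, not pooled. The deposited column 7 holds a ratio, the fold enrichment of the summit over local background. The deposited columns 8 and 9 hold −log10 p and −log10 q, and the lists reach down to a −log10 q of about 2. Summit reads and local background were recovered from columns 7 and 8, taking the fold as (reads + 1)/(background + 1) and the p as a Poisson tail, and fitted all peaks. Totals of sequenced reads are unknown.

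The members and gene lists were chosen with earlier results of these data known. Genes and TSS came from GENCODE release 44, and sequence from GRCh38. The peak of highest fold overlapping the TSS ± 1 kb stood for a promoter. Percentiles were taken within each list. Gain and loss were counted from presence in every library of a group and absence from every library of the other. Strength was tested with limma 3.58.1 (R 4.3.3) on quantile-normalized log2 fold, with trend and robust settings, over 16010 promoters, with Benjamini-Hochberg adjustment at 0.05. The fit was tested on simulated data with the same standard deviation, 0.137, for every promoter. Of 200 promoters planted with a log2 difference of 1 with shEZH2 among 16010, 199 were recovered, with 14 false calls. In the real fit the standard errors were unequal, for example 0.09 for FAM86C2P and 0.64 for ENSG00000286389. LINC02525 (1.19) and ENSG00000225563 (1.01) were not called with shE2F1. Recovery with unequal spreads was not tested. Named members had a symbol and were the 10 of highest mean percentile, up to 8 gained and 8 lost with shEZH2 and with shE2F1 and up to 5 each with shSUZ12 and GSK126 (by their lower percentile where present), those called in 2 or more comparisons, any called by limma, and the gene lists. Members of smallest limma p were added after seeing the values. Shares carry 95% Wilson intervals, which cover counting error only and count members sharing a summit separately. Copies of a summit window were searched with BLAST 2.17.0, and a copy had at least 90% of the window aligned. Other tools were Python 3.11.15, pandas 2.3.3, numpy 2.4.6, scipy 1.17.1 and pysam 0.24.0. Same-numbered libraries did not deviate together (r = 0.0493, 0.0494 and 0.0067), so replicates were not treated as pairs. Alternatives changed the window, the distance, the −log10 q limit, the number of peaks, the normalization, the measure and the replicates.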

Additional observations from a re-analysis of the deposited data

How the results depend on the processing

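Across the alternatives 115 values stayed within the limits set for a change and 30 moved. Many of those that stayed were limma counts of 0, and most gained and lost counts with a library left out moved. The tally is therefore no measure of how stable the gained and lost counts were. With every list cut to its top 58626 peaks, 18 members were gained and 43 lost with shEZH2, 78 gained and 61 lost with shSUZ12 (93 and 116 as reported, so the order turned) and 97 gained and 100 lost with GSK126. With shCtrl in place of DMSO, 36 members were gained with GSK126. On log2 of −log10 p, 1 member was called higher with shE2F1. Median percentiles of open members, 74.5 in shCtrl, 69.4 in shEZH2 and 73.0 in shE2F1, were 75.6 in shCtrl with a 500 bp window, 67.6, 69.1 and 68.3 with equal lists, where shCtrl became the lowest, and 80.5, 73.8 and 77.7 as percentiles of −log10 p. Leaving out 1 library at a time gave 12 to 67 members gained and 141 to 261 lost with shEZH2, 55 to 158 gained and 88 to 193 lost with shE2F1, and 130 to 167 gained and 187 to 232 lost with shSUZ12. Gained and lost counts were 12 and 247 (shEZH2), 55 and 152 (shE2F1) and 130 and 232 (shSUZ12) without shCtrl replicate 1, and 20 and 191, 69 and 115, and 167 and 187 without shCtrl replicate 2. They were 25 and 261 without shEZH2 replicate 1, 67 and 141 without shEZH2 replicate 2, 158 and 88 without shE2F1 replicate 1, where the order turned, and 78 and 193 without shE2F1 replicate 2. A definition over fewer libraries is easier to meet. Members called lower with shE2F1 ranged from 0 to 3, the 3 without shE2F1 replicate 2; there the lone library is assumed to vary like the others. The replicate block in limma left 0 members called in either comparison, with 52 higher and 78 lower at an unadjusted p under 0.05 for shEZH2 and 43 and 86 for shE2F1. Leaving out members with a near-identical copy, an alternative chosen after seeing the data, left 1133 members open throughout and moved no count by over 1.5 times. The weakest member peaks held 8 to 10 reads.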

Other observations

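The share of members open in all 9 libraries varied by chromosome, from 6.13% (4.4 to 8.49%, 95% Wilson) of the 538 members on chromosome 4 to 19.3% (15.0 to 24.5%) of the 259 on chromosome 19. The median percentile of the open members did not follow that order, at 82.8 on chromosome 4 and 74.5 on chromosome 19.

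Members were often arranged so that neighbours used the same accessible site. Of the distinct summits open in 9 libraries, 948 served 1 member, 128 served 2, 11 served 3 and 2 served 4. The summit shared by LINC02226, MIR4458HG and ENSG00000249159, 7 bp from the first start and 155 bp from the second, is an example, at percentiles of 95.7 to 99.4.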
